A study of Drosophila melanogaster with 12 samples.

Results

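Excitable cells generate signals with ion channels. Voltage-gated sodium and calcium channels carry inward current when the membrane depolarises. Potassium channels carry the outward current that repolarises it or holds it at rest, and accessory subunits set how many channels reach the membrane and how fast they gate. Larval brains hold neurons of all ages, from newborn cells that do not yet fire to mature ones. The genes described here are 33 sodium, potassium and calcium channel genes of Drosophila melanogaster, out of 13922 protein-coding genes on the main chromosome arms. They were listed by FlyBase symbol, with earlier results of these data known but with no measured value in the rule, and 33 of 33 were found in the gene annotation. Of these, 9 lie on X, 7 on 2R, 6 on 3L, 6 on 3R and 5 on 2L.

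Occupancy of Scalloped (Sd), the TEAD-family DNA-binding protein of flies, and of Nerfin-1, a zinc-finger factor of young neurons, was measured by targeted DamID in the central nervous system of wandering larvae of the third instar. In DamID a bacterial adenine methylase (Dam) fused to a protein marks GATC sites that the protein comes near. There were 2 samples each of Dam alone, Dam-Sd and Dam-Nerfin-1. The transgene p[pUAST-LT3-Dam], p[pUAST-LT3-Dam-Sd] or p[pUAST-LT3-Dam-Nerfin-1] sat at attP2, and the driver chromosome in all these animals carried GMR31H08-Gal4 with UAS-GFP. All were w and also carried 1 copy of tubGal80TS. Eggs were laid at 25°C, animals were kept at 18°C for 4 days, and the transgenes were released at 29°C for 24 hours, so the marks cover only cells in which this driver was active. Open chromatin (ATAC-seq, 3 samples) and RNA (RNA-seq, 3 samples) came from GFP-positive cells, sorted from the larval nervous system of animals reared at 25°C with the reporter P[nerfin-1.GFP-NLS.SV-40], whose label also reads iA. The RNA samples were pools of sorts from different days holding 180 to 330 ng, so their spread is that between pools. Occupancy and expression were thus measured in cells chosen in different ways and at different temperatures.

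DamID and ATAC results are 1 list of peaks per group, without replicate values or scores. The lists hold 4064 distinct Sd peaks, 3649 distinct Nerfin-1 peaks and 35494 ATAC peaks. A gene was called occupied or open when a peak overlapped it or the 1 kb on either side by at least 1 bp. RNA is given in CPM, the counts of a gene per 1000000 counts of its library. Libraries S1, S2 and S3 held 43555895, 44657928 and 57468071 counts over the 5135 genes in the authors' table, and values below are given in that order. An ATAC peak was present at 32 of 33 channel genes, against 83.2% of all protein-coding genes. The labelled cell type was checked with marker genes. Neuron markers were listed for 8 of 8 genes, with a summed level of 7810 to 8230 CPM. For neuroblasts 1 of 6 was listed (ase, 31.6 to 58.2 CPM), for glia 1 of 8 (gcm, 22.1 to 41.9 CPM), for hemocytes 0 of 6 and for muscle 0 of 6. Markers of cycling cells were listed for 6 of 6 genes, at a summed 261, 457 and 431 CPM. A gene that was not listed need not be silent, since no source used here gives the authors' rule for listing.

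Nerfin-1 peaks were found at 18 of the 33 channel genes and Sd peaks at 11. Over all protein-coding genes, the percentages were 32.9% for Nerfin-1 and 35.6% for Sd. All 11 genes with a Sd peak also had a Nerfin-1 peak (both kinds: 11 of 33, against 27.7% of all genes). They were tipE, Teh1, Teh2, Teh4, Shab, Shal, sei, cac, Ca-alpha1D, Ca-beta and na. Another 7 genes had Nerfin-1 peaks only, against 5.24% of all genes. They were the potassium channel genes Sh, Shaw, Shawl, Elk and KCNQ and the leak channel partners unc79 and unc80. There were 0 channel genes with Sd peaks only, against 7.92% of all genes. Among genes with 1 kind of peak, it was Nerfin-1 at 7 of 7 channel genes and at 39.8% of all genes. The remaining 15 had neither kind, against 59.1% of all genes.

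The split between the 2 kinds depended on how peaks were assigned to genes. With flanks of 5 kb, 20 channel genes had both kinds (46.9% of all genes) and 5 had Nerfin-1 only (6.30% of all genes), and 3 of these 5 (Sh, Shawl and unc80) were among the 7. The gene identifiers that the authors' lists attach to each peak could not match para or Ca-beta, whose current identifiers are newer. With these identifiers, 8 channel genes had Sd and 9 had Nerfin-1 (28.0% and 25.3% of all genes). By these, 4 had Nerfin-1 only (4.35% of all genes), of which 2 (Shaw and unc80) were among the 7, and 3 (Teh1, by a peak 3007 bp away, Teh2 and Shal) had Sd only (7.04% of all genes).

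**Figure D1:**
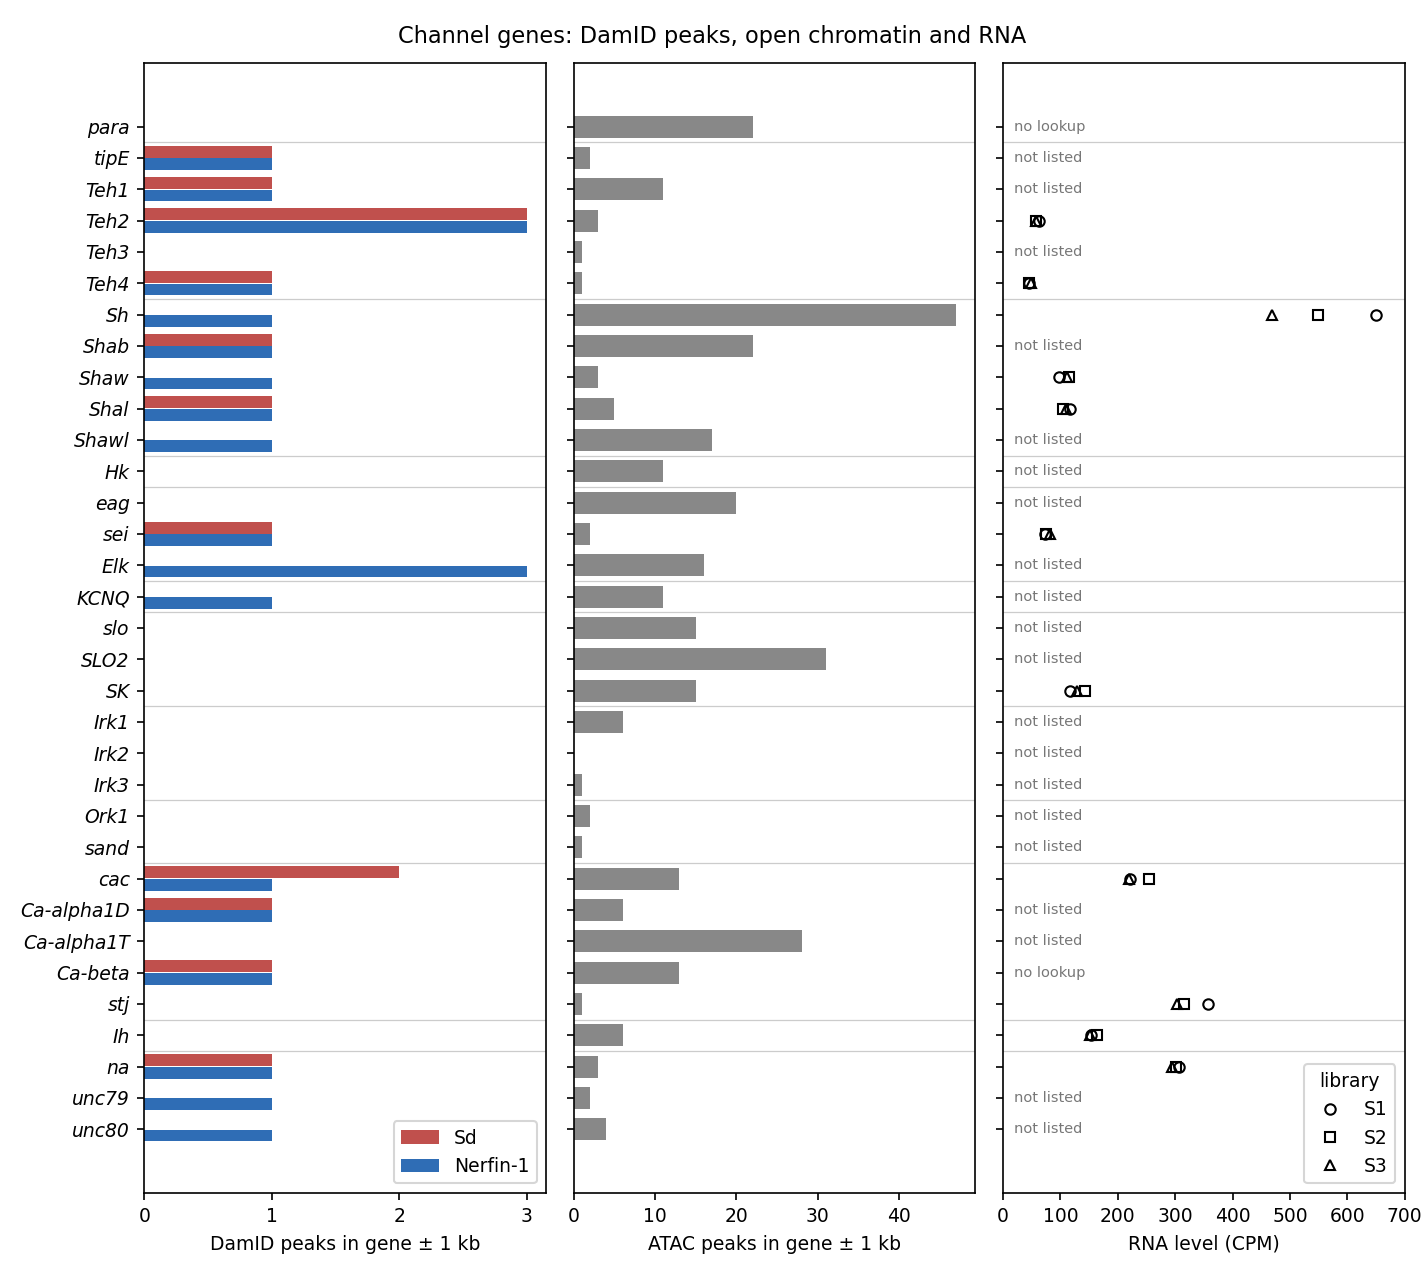
Each row is 1 channel gene, in the order of roles used in the text, with grey lines between roles. Left, number of Sd (red) and Nerfin-1 (blue) DamID peaks in the gene or within 1 kb; middle, number of ATAC peaks counted the same way; right, RNA level in CPM in libraries S1 (circle), S2 (square) and S3 (triangle), not divided by transcript length. Sd bars appear only at genes that also have a Nerfin-1 bar, and Sh has the most ATAC peaks (47).

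Channel genes are long, with a median of 24.0 kb against 2.16 kb for all protein-coding genes, and long genes had peaks more often. Among the 15 channel genes of 30 kb or more, 4 had both kinds of peak (26.7%), 4 had Nerfin-1 only (26.7%) and 7 had neither (46.7%). Of all 663 genes of that length, 57.5% had both, 7.09% had Nerfin-1 only, 8.30% had Sd only and 27.1% had neither. Any Sd peak was present at 26.7% of these channel genes and 65.8% of all such genes, and any Nerfin-1 peak at 53.3% and 64.6%. Among the 10 channel genes of 10 to 30 kb, 3 had both and 3 had Nerfin-1 only, where all 1313 genes of that length gave 50.3% and 7.24%. Another 4 had neither and 0 had Sd only, against 33.7% and 8.76%. Sd was thus present at 3 of these 10, against 59.0%, and Nerfin-1 at 6, against 57.5%. Of genes with 1 kind of peak, all genes had Nerfin-1 in 45.2% of cases at 10 to 30 kb and in 46.1% at 30 kb or more. Among the 8 shorter ones 4 had both and 4 neither, where all genes under 10 kb gave 23.6% and 63.7%, with 7.80% Sd only and 4.91% Nerfin-1 only. Of the 4 with both, 3 (tipE, Teh2 and Teh4) lie side by side and share the same stretch of peaks. The authors' identifiers could not match para and Ca-beta, both of 30 kb or more. By these identifiers, 2 of the 15 channel genes of 30 kb or more had Sd and 1 had Nerfin-1. At 10 to 30 kb these were 3 and 5 of 10, and under 10 kb 3 and 3 of 8. Shares of all genes by length were not computed for these identifiers. Channel genes are themselves part of the all-gene figures, and no test was run on these shares.

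**Figure D2:**
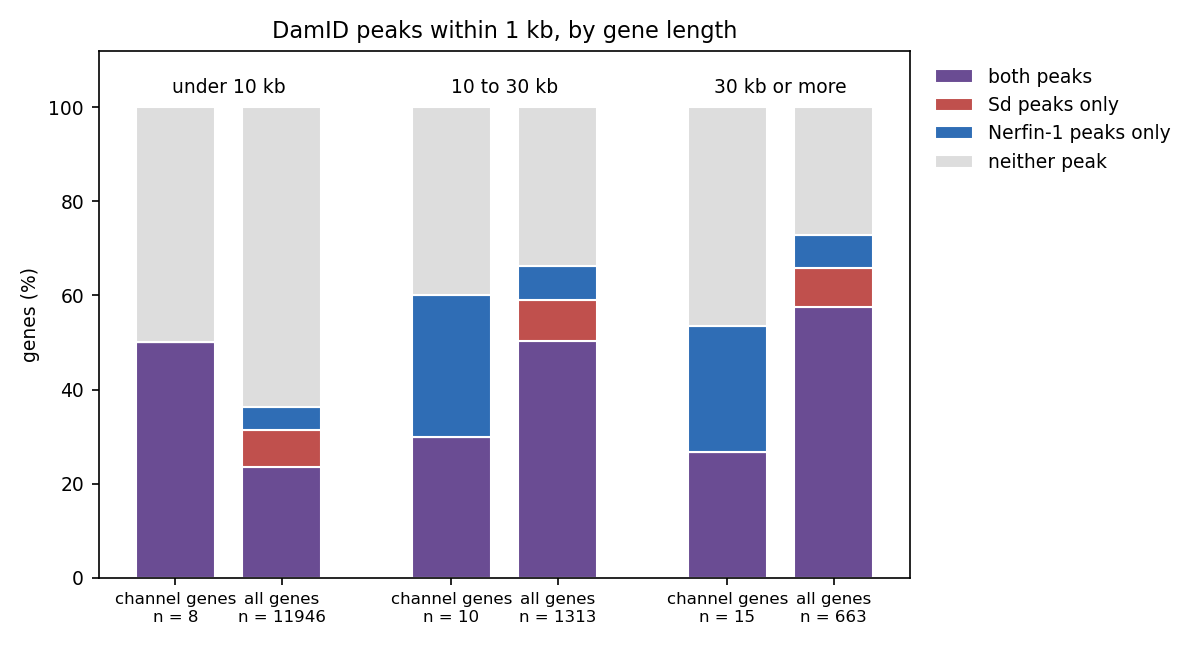
Stacked bars give the percentage of genes with both kinds of DamID peak, Sd only, Nerfin-1 only or neither within 1 kb, for channel genes and for all protein-coding genes in 3 classes of gene length, with the number of genes under each bar. In the class of 30 kb or more, both kinds were present at 26.7% of channel genes and 57.5% of all genes.

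The density of peaks along the channel genes depended on gene length. Channel genes of 30 kb or more, with their flanks, spanned 980.8 kb and held 5 Sd peaks (0.51 per 100 kb) and 10 Nerfin-1 peaks (1.02 per 100 kb). All genes of that length held 1.72 Sd and 1.55 Nerfin-1 peaks per 100 kb. ATAC peaks stood at 29.8 per 100 kb in these channel genes and 29.6 per 100 kb in all genes of that length. At 10 to 30 kb, the channel genes held 1.64 Sd, 3.28 Nerfin-1 and 20.8 ATAC peaks per 100 kb, against 4.05, 3.78 and 26.0 in all such genes. Under 10 kb the order turned for DamID, with 8.28 Sd and 8.28 Nerfin-1 peaks per 100 kb at channel genes against 6.36 and 5.70 at all such genes, while ATAC peaks stood at 16.6 against 25.0. These short genes held only 4 peaks of each list. Of 338 distinct ATAC peaks at the 33 genes, 313 overlapped no DamID peak. By length, this share was 95.5% at channel genes against 92.4% at all genes of 30 kb or more, 78.9% against 80.0% at 10 to 30 kb, and 4 of 8 peaks against 73.0% under 10 kb.

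Counting each peak once, 12 Sd and 20 Nerfin-1 peaks lay at the channel genes. Their median lengths were 1183 and 1018 bp, against 1140 and 1146 bp over the whole lists. A Nerfin-1 peak overlapped 9 of the 12 Sd peaks (75.0%, against 66.6% of the whole list). A Sd peak overlapped 10 of the 20 Nerfin-1 peaks, against 75.2% of the whole list. In 7 cases the boundaries were identical in both lists. An ATAC peak was overlapped by 9 of 12 Sd peaks (75.0%, against 76.8%) and by 18 of 20 Nerfin-1 peaks (90.0%, against 74.7%). Each of the 10 Nerfin-1 peaks without a Sd peak touched an ATAC peak; over the whole list this held for 55.1% of 906 such peaks. Overlap could be slight: in Sh only 1.89% of the peak was covered. With at least 50% of a peak covered by open chromatin, the shares were 41.7% for Sd and 55.0% for Nerfin-1, against 37.4% and 39.0% of the whole lists.

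The voltage-gated sodium channel of the fly action potential is encoded by para (X, 16455027 to 16533096). It is 78.1 kb long with 60 RefSeq transcripts, the most among the channel genes. It held 22 ATAC peaks and neither kind of DamID peak, and the nearest peak of both lists lay 5296 bp away. RNA of para could not be looked up, since its current identifier is newer than the annotation behind the RNA table.

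The TipE family encodes membrane proteins that raise or tune the sodium current carried by para. Of its 5 genes, tipE, Teh2, Teh3 and Teh4 share 18.9 kb of 3L (4174859 to 4193788), with Teh3 inside Teh2. This stretch held 3 Sd and 3 Nerfin-1 peaks. The peak of 407 bp between Teh4 and Teh2 (3L, 4178450 to 4178856) and the peak of 326 bp in Teh2 (3L, 4186231 to 4186556) had identical boundaries in both lists. Between Teh2 and tipE the lists differed. A Sd peak of 549 bp lay in the end of Teh2 next to tipE (3L, 4187368 to 4187916), and a Nerfin-1 peak of 970 bp lay over the facing end of tipE (3L, 4188090 to 4189059). Both overlapped the same ATAC peak of 2451 bp. The gene CG18675 also overlaps this stretch, and VhaM9.7-c overlaps the peak of 326 bp, so these peaks cannot be given to a single gene.

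**Figure D3:**
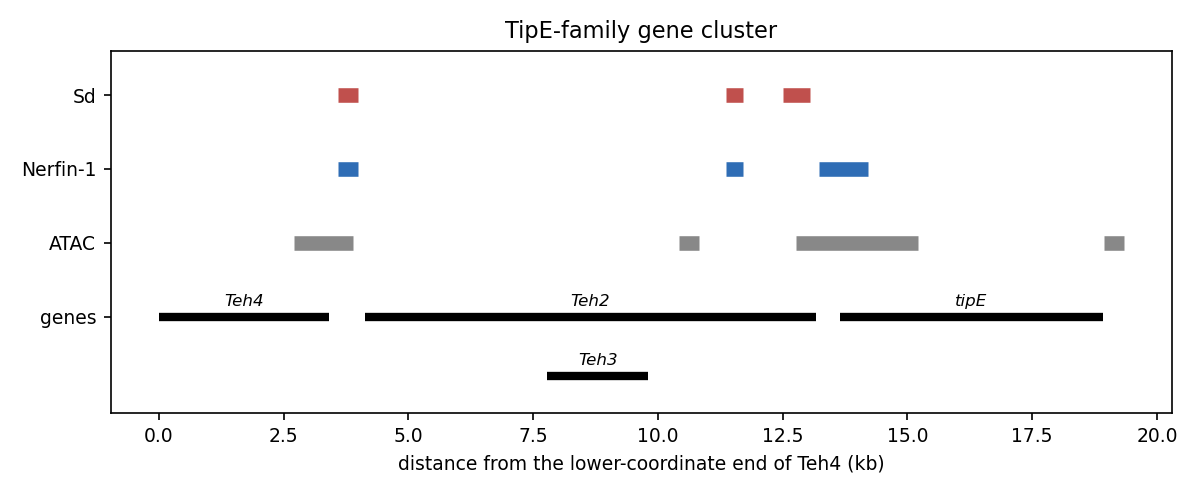
Map of the 4 clustered TipE-family genes (black bars, Teh3 drawn below Teh2) with ATAC peaks (grey), Nerfin-1 peaks (blue) and Sd peaks (red) against distance in kb from the lower-coordinate end of Teh4. The 2 left-hand DamID peaks have the same boundaries in both lists, while the right-hand ones are separate peaks over 1 ATAC peak.

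Teh1 stands apart on 3R and is 42.0 kb long. At its lower-coordinate end the lists shared a start, with a Sd peak of 1988 bp (3R, 9825201 to 9827188) and a Nerfin-1 peak of 1065 bp (3R, 9825201 to 9826265). Teh3 had no peak within 1 kb and lay 1567 bp from the nearest of both lists, the nearest miss among the channel genes for either protein. RNA was listed for 2 of the 5 genes. The level of Teh2 was 62.5, 58.0 and 57.9 CPM (59.5 ± 2.66, SD, n = 3). That of Teh4 was 44.6, 44.6 and 48.2 CPM (45.8 ± 2.07, SD, n = 3). The libraries thus lay close together for both genes. Other genes overlap Teh2 and Teh4 (CG18675; for Teh2 also Teh3 and VhaM9.7-c), and no source used here says how reads in such stretches were counted.

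The Kv family opens on depolarisation. Sh gives the fast, inactivating A-type current, Shal the A-type current of cell bodies and dendrites, Shab a delayed rectifier and Shaw a current with little dependence on voltage; Shawl is named for its likeness to Shaw. All 5 had a Nerfin-1 peak, and Shab and Shal also had a Sd peak. In Sh (X, 17924307 to 18063247), the longest channel gene at 138.9 kb, a Nerfin-1 peak of 582 bp lay well inside, 115.8 kb from the lower-coordinate end (X, 18040079 to 18040660). The nearest Sd peak was 16267 bp outside the gene. In Shawl (2L, 9370309 to 9415156) a Nerfin-1 peak of 2734 bp (2L, 9375810 to 9378543) lay inside the gene, and the nearest Sd peak was 16571 bp outside. In Shaw a Nerfin-1 peak of 390 bp lay at the lower-coordinate end, wholly in open chromatin (2L, 3718235 to 3718624).

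In Shab a peak of 918 bp with identical boundaries in both lists lay 23.0 kb inside the gene and touched none of its 22 ATAC peaks (3L, 2917990 to 2918907). At Shal a Sd peak of 2661 bp (3L, 19584391 to 19587051) ran across the upper-coordinate end and over CG9231 and CG9330. The Nerfin-1 peak of 965 bp (3L, 19584877 to 19585841) lay within that stretch, 308 bp outside Shal. The accessory beta subunit of Shaker channels, Hk, had neither peak and 11 ATAC peaks. Both lists had their nearest peak 1665 bp from it.

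**Figure D4:**
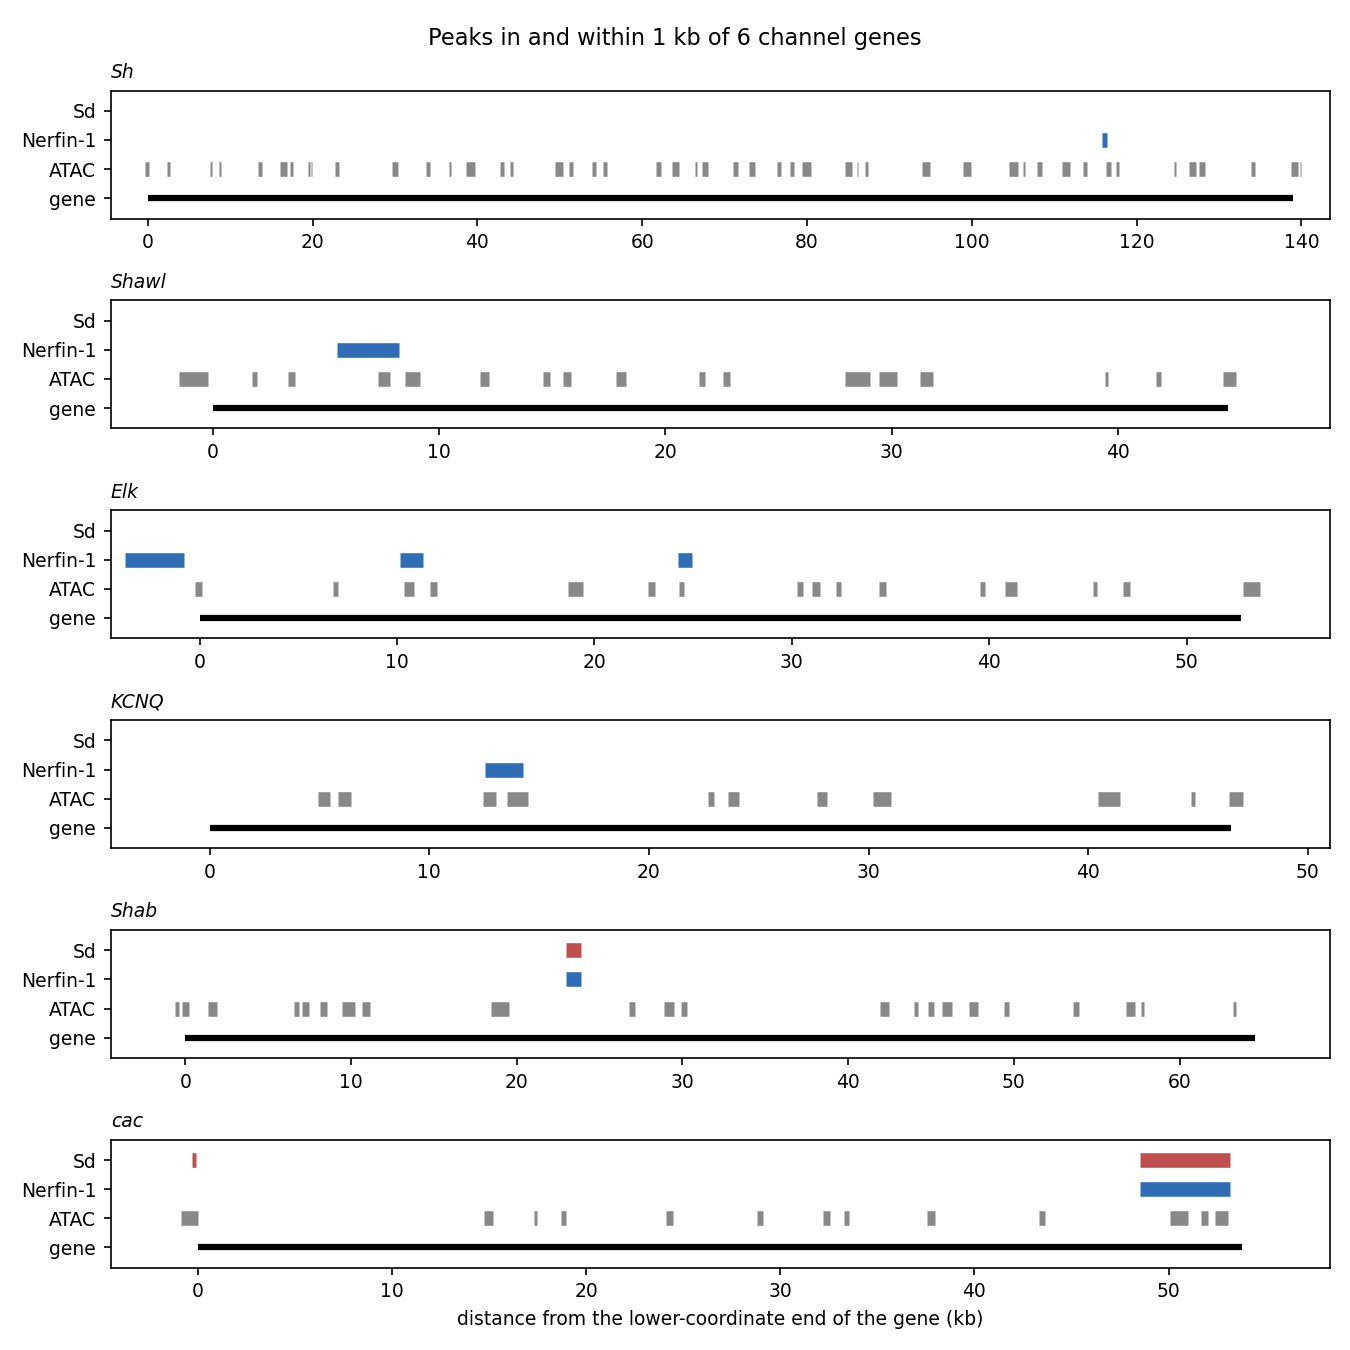
Maps of Sh, Shawl, Elk, KCNQ, Shab and cac, each gene drawn as a black bar against distance in kb from its lower-coordinate end, with ATAC peaks (grey), Nerfin-1 peaks (blue) and Sd peaks (red) in the gene or within 1 kb. In Sh, Shawl and KCNQ 1 Nerfin-1 peak lies inside the gene without a Sd peak; in Shab and cac the peaks inside the gene coincide.

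RNA was listed for 3 of the 5 Kv genes. Sh stood at 650, 549 and 468 CPM (555 ± 91.1, SD, n = 3). S1 was highest and S3 lowest, 1.39-fold apart. The coefficient of variation of Sh was 16.4%, higher than that of 96.4% of all listed genes (median 5.93%). Shaw ran the other way in S1, with 96.8, 115 and 111 CPM (107 ± 9.43, SD, n = 3). Shal stood at 116, 104 and 109 CPM (110 ± 5.82, SD, n = 3). In S1, the library in which Sh was highest, cycling-cell markers were lowest. So were ase (31.6, 58.2 and 52.6 CPM) and gcm (22.1, 41.9 and 41.2 CPM). These were the only listed genes of the 6 neuroblast and 8 glial markers. Among neuron markers, brp had the same order of libraries as Sh (1500, 1270 and 1110 CPM), as did Syt1 and Syx1A. In contrast, elav, fne and Rim were highest in S2, nSyb was lowest in S2 and cpx had 1020, 1020 and 977 CPM. The summed neuron list was 8130, 8230 and 7810 CPM. The part of these markers in the differences was not tested. In pooled cells, fewer cells of a type and less RNA per cell cannot be told apart. Sh overlaps 3 other coding genes (CG12672, CG6867 and CG15373). Shab and Shawl were not listed, and neither was Hk.

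The EAG family are voltage-gated potassium channels with a cyclic-nucleotide-binding-like domain. sei, the fly ERG channel whose loss causes paralysis in heat, lay under the longest peak at any channel gene. It measured 5029 bp with identical boundaries in both lists (2R, 24045054 to 24050082) and also covered parts of tsr and gammaSnap1. Elk had 3 Nerfin-1 peaks. Those of 1126 bp (2R, 17884113 to 17885238) and 712 bp (2R, 17898154 to 17898865) lay inside the gene with no Sd peak. The third, of 2987 bp, lay over Mapmodulin next door and overlapped a Sd peak that was itself 3011 bp from Elk. eag had neither kind of peak but held 20 ATAC peaks. sei was the only listed gene of the family, at 72.7, 75.6 and 82.3 CPM (76.9 ± 4.91, SD, n = 3), with gammaSnap1 and ppk29 overlapping it.

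KCNQ, which gives the slow M-type current, had a Nerfin-1 peak of 1753 bp over 2 ATAC peaks (2R, 10158422 to 10160174). It lay inside the gene and over mlt, the gene whose identifier the authors attached to it. KCNQ was not listed in the RNA table. The potassium channels opened by internal ions, slo (calcium and voltage), SK (calcium) and SLO2, had 15, 15 and 31 ATAC peaks and no DamID peak of either kind. The nearest Sd peaks lay 10355, 11835 and 6837 bp away. Of these, SK was listed, at 117, 143 and 129 CPM (130 ± 13.1, SD, n = 3). S1 was the lowest and S2 the highest, 1.22-fold apart.

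The inward rectifiers Irk1, Irk2 and Irk3 and the leak channels Ork1 and sand had no DamID peak and were not listed. Irk2 was the single channel gene with no ATAC peak within 1 kb (no such peak at 16.8% of all genes), and its nearest lay 1310 bp away. Irk3 and sand had 1 ATAC peak each, Ork1 had 2 and Irk1 had 6. The 5 genes thus lacked a mark from either protein at this flank. In the authors' assignment Irk1 had a Nerfin-1 peak, 872 bp long and 2712 bp from the gene. In all, 5 of 18 potassium channel genes had Nerfin-1 only, 3 had both, 0 had Sd only and 10 had neither. Over all protein-coding genes these shares were 5.24%, 27.7%, 7.92% and 59.1%, and those by gene length are given above. By the authors' identifiers, Shaw and Irk1 had Nerfin-1 only, Shal had Sd only, sei had both and the others had neither.

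Among calcium channel genes, cac encodes the pore of the channel that triggers vesicle release at active zones. It had a peak of 4606 bp with identical boundaries in both lists, 0.6 kb from its upper-coordinate end and over 3 ATAC peaks (X, 11979832 to 11984437). A second Sd peak of 206 bp lay just below the lower-coordinate end, and the authors' list gives it to Pdzd8. Ca-beta, the cytoplasmic subunit, had a peak of 2178 bp with identical boundaries inside the gene, over 2 ATAC peaks (2L, 11166868 to 11169045). At Ca-alpha1D, the L-type pore, the peaks were separate. The Sd peak of 655 bp crossed the lower-coordinate end and touched no ATAC peak (2L, 16165190 to 16165844). The Nerfin-1 peak of 534 bp lay 1.9 kb inside and touched 2 (2L, 16167742 to 16168275). Ca-alpha1T, the T-type pore, had 28 ATAC peaks over 88.4 kb and no DamID peak, with the nearest of both lists 33234 bp away. stj, the alpha2delta subunit that brings cac to synapses, had 1 ATAC peak and no DamID peak; the nearest of both lists was 1979 bp away.

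RNA was listed for cac and stj. cac stood at 222, 254 and 219 CPM (231 ± 19.3, SD, n = 3). stj stood at 357, 315 and 303 CPM (325 ± 28.4, SD, n = 3). The highest library was S2 for cac and S1 for stj. Ca-alpha1D and Ca-alpha1T were not listed, and Ca-beta could not be looked up.

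Channels that are open near rest comprise the HCN channel Ih, activated by hyperpolarisation, and the sodium leak channel na (narrow abdomen, the fly NALCN) with its partners unc79 and unc80. Ih had 6 ATAC peaks and no DamID peak. na had a peak of 1448 bp with identical boundaries over its lower-coordinate end and over CG13404 (X, 14266120 to 14267567). unc80 had a Nerfin-1 peak of 1520 bp over its lower-coordinate end and 3 ATAC peaks (3R, 27661259 to 27662778), and the nearest Sd peak was 5910 bp away. The call at unc79 rests on a Nerfin-1 peak of 676 bp that lies 980 bp outside the gene, over CG5250 and Polr2M (3R, 19229108 to 19229783). It was the farthest peak still counted.

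Levels of na were nearly level across libraries, at 306, 302 and 294 CPM (301 ± 5.99, SD, n = 3), with a coefficient of variation of 1.99%. Ih stood at 154, 163 and 151 CPM (156 ± 5.77, SD, n = 3). unc79 and unc80 were not listed, although RNA of the pore they serve was.

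RNA was thus listed for 11 of 33 channel genes, against 35.5% of all protein-coding genes. Of the 31 that could be looked up the 11 make 35.5%, against 36.2% of all such genes. Of the 11 genes with both peaks 6 were listed (58.8% of all genes of that class), of the 7 with Nerfin-1 only 2 (34.4%), and of the 15 with neither 3 (23.0%). These shares lie close to those of all genes. Of all genes with Sd only, a class without channel genes, 47.6% were listed. Among genes of 30 kb or more 3 of 15 were listed (Sh, SK and cac), against 49.2% of all genes of that length. These 15 include para and Ca-beta, which could not be looked up and count as not listed. Among those of 10 to 30 kb the shares were 5 of 10 and 48.4%. The median level of the 11 genes was 130 CPM, against 83.0 CPM over all listed genes. CPM measures a share of reads and is not divided by transcript length, so levels of different channel genes are not compared here.

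The median log2 difference of S1 from the mean of S2 and S3 was -0.02 over the 11 genes and -0.08 over all listed genes, with 6 of 11 below 0 (76.5% of all listed genes). For S3 the medians were -0.05 and 0.10, with 8 of 11 below 0 (20.7% of all listed genes), so the median of the channel genes lay below that of all listed genes. Library sizes were then scaled by the trimmed mean of M-values (TMM), which brings the medians over all listed genes to within 0.01 of 0. The medians over the 11 genes were then 0.06 for S1 and -0.14 for S3. Of the 11, 4 lay below 0 in S1 and 9 in S3. The shares of all listed genes below 0 were not computed with TMM. Sh lay above the other libraries in S1 by 0.36 on the log2 scale (0.44 with TMM) and Shaw below by -0.22 (-0.14 with TMM). With 3 pools of 1 group, no test of these differences was made.

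**Figure D5:**
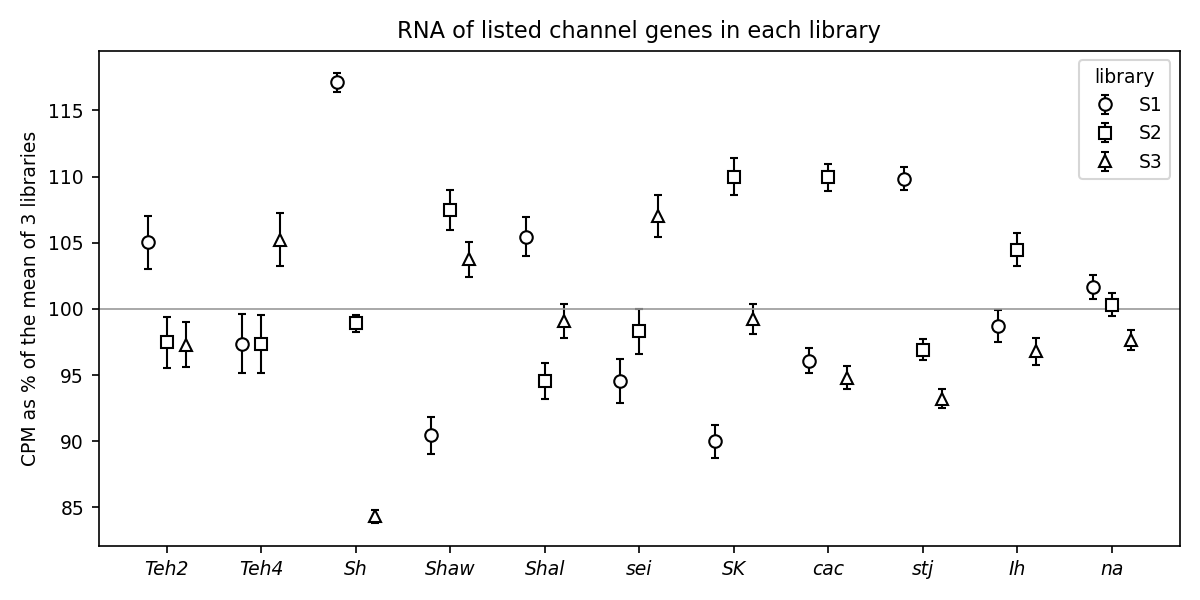
RNA of the 11 listed channel genes in libraries S1 (circle), S2 (square) and S3 (triangle), as a percentage of each gene's mean CPM over the 3 libraries; bars are 1 SD of counting error (square root of the count). The axis does not start at 0. Sh has the widest spread, from 468 to 650 CPM, and na the narrowest.

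Other genes that carry or regulate ion flow were counted in the same way. Of 41 names, 38 were matched; 16 had both peaks, 4 had Sd only, 3 had Nerfin-1 only and 15 had neither, against 27.7%, 7.92%, 5.24% and 59.1% of all protein-coding genes. The RNA table listed 20 of the 38, against 35.5% of all genes. Those with Nerfin-1 only were Slob, which binds slo channels, Ca-Ma2d and the sodium-calcium exchanger Calx. None of these 3 was listed, against 34.4% of all genes of that class that were. Those with Sd only were the calcium pump SERCA, the chloride channel and transporter genes ClC-b and ClC-c, and nrv3, a subunit of the neuronal sodium pump. All 4 were listed, against 47.6% of all genes of that class. SERCA stood at 200 ± 8.89 CPM and nrv3 at 499 ± 48.9 CPM (SD, n = 3). No test was made on these 3 and 4 genes. Among the 13 anion channel genes 3 had both and 8 had neither. Of the 4 sodium pump genes, 3 had both, among them the catalytic subunit Atpalpha at 1140 ± 20.1 CPM (SD, n = 3).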

How the data were processed

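DamID, ATAC-seq and RNA-seq samples were grouped by title. The submitters' processing notes name the build dm6 and, without their roles, Bowtie2, MACS2, bedtools, Subread, featureCounts and edgeR. How replicates and the Dam controls were combined is not stated in them. The authors' deposited lists give peak positions, and for DamID also gene identifiers, without scores or depth. The RNA values deposited by the authors are raw counts (lowest 99). Its columns could not be tied to replicate numbers; 0 columns were left unmapped.

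Gene positions came from RefSeq on the same assembly, without strand, exons or sequence. Identifiers of 298 protein-coding genes, para and Ca-beta among them, are newer than those in the files. These genes count as not listed and, by the authors' identifiers, as without a peak. Counts were scaled to 1000000 per library and, for differences, log2-transformed after adding 1 CPM, with Python 3.11.15 and edgeR 4.0.16 (TMM). Overlap code was tested on simulated intervals. Members, lists, length classes and roles were chosen with earlier results of these data known, and all members are named. No group contrast has replicate values, so no test was run. SD covers the spread between pools; peaks of neighbouring genes are not independent. Alternatives were other flanks, the authors' identifiers, longer peaks, stricter overlap, other scalings, a low-count filter and leaving out libraries.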

Additional observations from a re-analysis of the deposited data

How the results depend on the processing

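Counts of channel genes moved with the assignment of peaks. With 5 kb flanks, 20 had Sd, 20 had both (46.9% of all genes) and 8 had neither. With the authors' identifiers, 9 had Nerfin-1 (25.3% of all genes), 5 both, 4 Nerfin-1 only (4.35%) and 3 Sd only (7.04%). Here para and Ca-beta could not be matched and count as without a peak. With only the longer 50% of each DamID list, 6 had Sd, 8 Nerfin-1, 4 both, 4 Nerfin-1 only, 2 Sd only and 23 neither. Of these longer peaks at channel genes, 100% of Sd (6 of 6) and 100% of Nerfin-1 (8 of 8) overlapped open chromatin. The share among the longer 50% of the whole lists was not computed. The 100% is therefore not shown to be particular to channel genes. With no flank, 1 gene (Shal) had Sd only. Leaving out peaks over another protein-coding gene gave 5 with Sd, 10 with Nerfin-1, 5 with both and 23 with neither. This alternative was chosen after seeing the data, like the counts of 1 kind only. Shares of all genes were not computed for longer peaks, for no flank or for this alternative. They were also not computed for Sd or neither with 5 kb flanks, or for both kinds by the authors' identifiers. With at least 50% of a peak covered by ATAC peaks, the shares were 41.7% for Sd and 55.0% for Nerfin-1. The median log2 difference moved to 0.06 for S1 and -0.14 for S3 under both TMM and median-of-ratios scaling. Such scaling shifts the genes of a library together, and the medians over all listed genes moved too, to within 0.01 of 0. Why the channel genes differed from all listed genes was not tested. The median RNA level ranged from 123 to 136 CPM with 1 library left out. No paired analysis was possible because no result comes from a fit over samples and the RNA columns carry no replicate numbers. No depth is known for the DamID or ATAC lists, so a missing peak is not evidence that a protein is absent.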

Other observations

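The peaks inside Ca-beta carry the identifier FBgn0259822 in the authors' deposited lists, which the name table used here does not pair with a symbol. In the RNA table that identifier had 147, 151 and 145 CPM in libraries S1 to S3 (148 ± 2.82, SD, n = 3). Whether these counts belong to Ca-beta was not settled, and they enter no count above.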
